A study of Mus musculus with 7 samples.

Results

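A set of 10 genes of the endoplasmic reticulum (ER) stress and integrated stress response were followed in muscle cells that had been incubated with exosomes. The genes were Hspa5, Ddit3, Atf4, Xbp1, Asns, Trib3, Herpud1, Dnajb9, Pdia4 and Calr. They were found by the gene name that the array annotation gives to each non-control probe, which returned 12 of the 39429 probes on the array. Atf4 and Dnajb9 had 2 probes each, and the other 8 genes had 1. C2C12 is an established line of mouse myoblasts that can be differentiated into multinucleated myotubes. Recipient C2C12 cells received exosomes released by other C2C12 cultures, which had been exposed to palmitate (EXO-Post Palm) or to its carrier BSA (EXO-Post BSA), and RNA from the recipients was measured on 1-colour Agilent mouse arrays. Palmitate was given to the donor cells at 0.5 mmol/l, exosomes were collected 9 h after its removal, and recipient cells were kept with them for 24 h without serum. No palmitate was added to the recipient cells of either group. In the paper's lipid measurements, however, exosomes of palmitate-treated cells held more palmitate than those of BSA-treated cells. Those measurements are given for exosomes named EXO-Palm and EXO-BSA, and not for those collected 9 h after palmitate removal. The paper proposes that EXO-Post Palm could pass palmitate on to other muscle cells. The labels give the recipient cells as myoblasts and the paper as myotubes, and muscle markers are given below. Arrays of 4 cultures with EXO-Post BSA and of 3 with EXO-Post Palm were used, which the labels call biological replicates.

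The ER folds secreted and membrane proteins, and unfolded protein inside it activates 3 sensors, PERK (Eif2ak3), IRE1 (Ern1) and ATF6. PERK phosphorylates the translation factor eIF2alpha, as do other kinases that sense amino acid or haem shortage, and this common route to translation of ATF4 is the integrated stress response. IRE1 splices Xbp1 mRNA, and ATF6 is cut in the Golgi to release a transcription factor, and both then raise ER chaperones and components of ER-associated degradation. Saturated fatty acids such as palmitate are known to activate these pathways when they are given directly to muscle cells. The comparison here asks whether exosomes from palmitate-exposed cells changed the mRNA of these genes in cells that met only the exosomes.

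The promoters of the 10 genes were all found by symbol in the RefSeq sequence table (build GRCm38.p6). The 250 bases before each start site were searched on both strands for 5 stress elements. They were the ER stress element ERSE (CCAAT and CCACG with any 9 bases between them), ERSE-II (ATTGG and CCACG with any 1 base between them), the XBP1-type UPRE (TGACGTGG), and the ATF4-type elements NSRE-1 (TGATGAAAC) and CARE (TGATGCAAT). The promoters of 4 genes held 1 exact match each, and they are printed because these letters are where stress-activated factors are known to bind. Capitals mark the match, and each sequence runs towards the start site of the gene.
Hspa5, chr2:34771840-34772089, + strand: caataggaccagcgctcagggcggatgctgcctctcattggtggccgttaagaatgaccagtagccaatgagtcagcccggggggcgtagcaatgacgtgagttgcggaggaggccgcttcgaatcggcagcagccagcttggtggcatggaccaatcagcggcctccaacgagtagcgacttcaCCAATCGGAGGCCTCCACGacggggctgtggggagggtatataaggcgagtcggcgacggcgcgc
Calr, chr8:84846932-84847181, - strand: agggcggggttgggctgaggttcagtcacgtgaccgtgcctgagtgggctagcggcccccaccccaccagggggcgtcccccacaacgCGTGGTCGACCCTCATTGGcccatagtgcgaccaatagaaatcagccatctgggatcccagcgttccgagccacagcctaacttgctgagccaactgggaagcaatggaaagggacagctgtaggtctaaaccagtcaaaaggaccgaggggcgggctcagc
Herpud1, chr8:94386179-94386428, + strand: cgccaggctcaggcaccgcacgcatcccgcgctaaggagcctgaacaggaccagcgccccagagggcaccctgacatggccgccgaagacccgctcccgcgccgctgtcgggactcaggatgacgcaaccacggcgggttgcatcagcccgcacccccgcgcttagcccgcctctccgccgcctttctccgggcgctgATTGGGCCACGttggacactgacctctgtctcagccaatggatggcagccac
Asns, chr6:7693210-7693459, - strand: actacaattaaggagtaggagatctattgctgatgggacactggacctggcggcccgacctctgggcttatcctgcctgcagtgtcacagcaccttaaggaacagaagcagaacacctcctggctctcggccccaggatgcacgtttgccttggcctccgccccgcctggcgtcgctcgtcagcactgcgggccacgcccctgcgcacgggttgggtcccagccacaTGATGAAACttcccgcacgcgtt

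The ERSE of Hspa5 lay 65 to 47 bases before the start site, and that of Calr 162 to 144 bases before it on the opposite strand. Of 32851 promoters in the table, 0.113% held an ERSE, against 2 of the 10 genes. The ERSE-II of Herpud1 lay 52 to 42 bases before the start and was present in 0.0304% of all promoters. The NSRE-1 of Asns lay 23 to 15 bases before the start and was present in 0.213% of all promoters. UPRE and CARE, present in 0.563% and 0.167% of all promoters, were in none of the 10 windows. A match is a description of these letters only. The elements were picked as known ones of this response, and the genes as known members of it. Matches in these genes were thus likely beforehand, and the shares are not a test.

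Each value below is the log2 intensity of a probe minus the 75th percentile of its array, so 0 stands for that percentile. Levels are compared between arrays for 1 probe and not between probes. The test took in the 21587 probes that the scanner software called well above background on 75% or more of either group's arrays. All 12 probes were tested, and all 12 were well above background on all 7 arrays. The 75th percentile lay between 549.4 and 1621 intensity units, 49.5 to 70.8% of spots per array were well above background, and no spot was saturated. Of 4 slides, 2 held both groups. These were slide 1, with the first EXO-Post Palm array and the first 2 of EXO-Post BSA, and slide 3, with EXO-Post BSA replicate 4 beside the last EXO-Post Palm array. In RNA from a whole culture, fewer cells of a type and less RNA per cell cannot be told apart.

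None of the 12 probes passed the threshold of limma (adjusted p of 0.05, Benjamini-Hochberg over all 21587 probes), where 0.533% of all tested probes did, 0.463% higher and 0.0695% lower with EXO-Post Palm. Their adjusted p-values ran from 0.488 to 0.988. Log2 fold changes were below 0 for 8 probes and above 0 for 4, and they were above 0 for 47.3% of all tested probes. Only that of Pdia4 reached 0.5 in size, as 22.1% of all did. One probe, that of Asns, had an unadjusted p under 0.05 by limma, as did 5.19% of all tested probes in its direction and 4.85% in the other. The groups did not overlap for 2 of the 12 probes (16.7%), those of Asns and Herpud1, both lower with EXO-Post Palm, as was the case in either direction for 11.3% of all tested probes, 5.87% lower and 5.39% higher. With 1 probe per gene, the brighter, the median log2 fold change was -0.19, beside -0.02 over all tested probes. The plot of values by array shows all 12 probes.

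**Figure D1:**
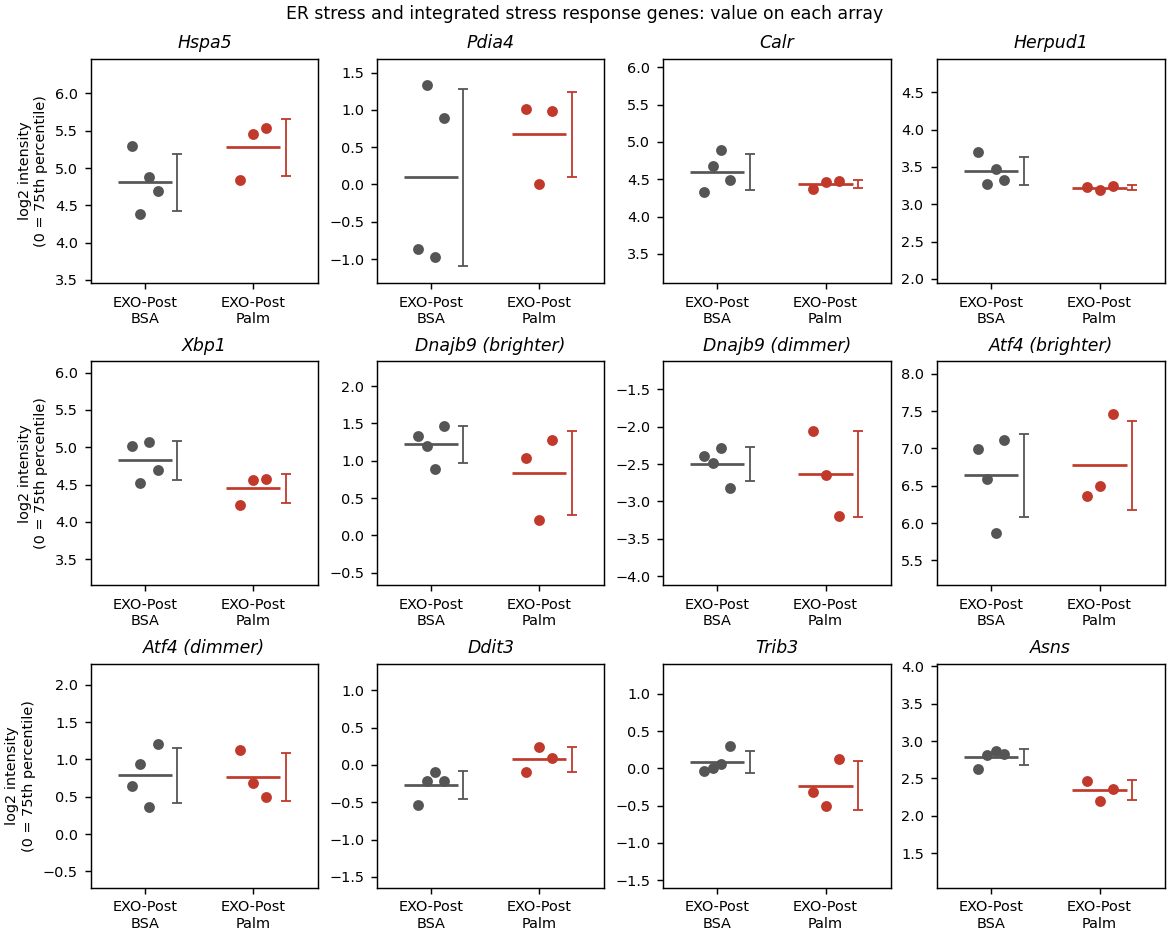
Log2 intensity of each probe on each array (vertical axis, 0 is the 75th percentile of the array, the same span of 3 in every panel) for 4 EXO-Post BSA arrays (grey) and 3 EXO-Post Palm arrays (red). Horizontal lines are means and bars are SD. The groups overlap in all panels but those of Asns and Herpud1, and Pdia4 has the widest spread, with an SD of 1.19 among EXO-Post BSA arrays.

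Among the genes of ER folding and degradation, Hspa5 and Pdia4 were higher in the mean and Calr and Herpud1 lower, and none passed the test. Hspa5 encodes BiP, the main Hsp70 chaperone of the ER lumen, which also holds the 3 sensors inactive. Its probe (chr2:34631913-34631972, + strand, mm9) read, in the order of replicates used throughout, 5.29, 4.38, 4.88 and 4.69 with EXO-Post BSA and 4.84, 5.45 and 5.54 with EXO-Post Palm. EXO-Post Palm replicates 2 and 3 lay above every EXO-Post BSA array and replicate 1 lay within their range. The means were 4.81 ± 0.38 (SD, n = 4) and 5.28 ± 0.38 (SD, n = 3). The log2 fold change was 0.47 (SE 0.282, 95% interval -0.17 to 1.11), with an adjusted p of 0.624 by limma, so the difference did not pass the threshold. On slide 1 it was 0.01 and on slide 3 it was 0.85, and it was 0.29 to 0.34 in the same fit with normexp, without the multiplicative correction described below or with the authors' values.

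Pdia4 encodes ERp72, a protein disulphide isomerase that forms and rearranges disulphide bonds in the ER. Its probe (chr6:47746516-47746575, - strand, mm9) read -0.87, 1.33, -0.97 and 0.89 on the EXO-Post BSA arrays and 1.01, 0.01 and 0.99 on the EXO-Post Palm arrays. EXO-Post BSA replicates 1 and 3 were the lowest of the 7 arrays, the group spanned 2.30, and the EXO-Post Palm values fell within it. EXO-Post Palm differed by 0.58 on the log2 scale (SE 0.600, 95% interval -0.79 to 1.94, adjusted p 0.785 by limma). Its residual SD of 0.990 was at the 95.5th percentile of all tested probes, where the median was 0.356. Replicates 1 and 2, which differed here, stood on the same slide. In the scanner signal before the multiplicative correction described below, the same arrays were low, at -1.12 and -1.06, and the others read 1.15 and 0.91.

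Calr encodes calreticulin, the lectin chaperone that binds calcium and newly made glycoproteins in the ER. Its probe (chr8:87366192-87366251, - strand, mm9) read 4.33, 4.68, 4.89 and 4.49 with EXO-Post BSA and 4.37, 4.46 and 4.47 with EXO-Post Palm. The EXO-Post Palm values all fell inside the EXO-Post BSA range. The difference was -0.16 on the log2 scale (SE 0.207, 95% interval -0.64 to 0.31, adjusted p 0.83 by limma), and its sign was not stable, since 3 other ways to obtain the intensities gave 0.13 to 0.24.

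Herpud1 encodes a membrane protein of the ER that takes part in ER-associated degradation, in which misfolded proteins are moved to the cytosol and destroyed. Its probe (chr8:96919117-96919176, + strand, mm9) read 3.70, 3.27, 3.47 and 3.33 with EXO-Post BSA and 3.23, 3.19 and 3.25 with EXO-Post Palm. All 3 EXO-Post Palm arrays lay below the lowest EXO-Post BSA array, by 0.02 or more. The log2 fold change was -0.22 (SE 0.196, 95% interval -0.67 to 0.22, adjusted p 0.748 by limma, 2-sided exact permutation p 0.0857). The groups overlapped under each of the 5 other scalings tried, and 3 of them turned the sign, giving 0.07 to 0.14.

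In the IRE1 branch, both genes were lower in the mean without passing the test. Xbp1 encodes the transcription factor made after IRE1 splices its mRNA, and the array does not separate the spliced from the unspliced form. Its probe (chr11:5425816-5425875, + strand, mm9) read 5.02, 4.52, 5.07 and 4.69 with EXO-Post BSA and 4.23, 4.56 and 4.57 with EXO-Post Palm. One EXO-Post Palm array lay below the EXO-Post BSA range and the other two near its lower end. In log2 fold change this was -0.37 (SE 0.224, 95% interval -0.88 to 0.14, adjusted p 0.624 by limma). Other ways to obtain the intensities gave -0.19 (normexp), -0.17 (no multiplicative correction) and -0.09 (the authors' values).

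Dnajb9 encodes ERdj4, an Hsp40 co-chaperone of BiP and a target of XBP1. Its brighter probe (chr12:45307313-45307372, - strand, mm9) read 1.33, 1.20, 0.89 and 1.46 with EXO-Post BSA and 1.03, 0.20 and 1.28 with EXO-Post Palm. Only EXO-Post Palm replicate 2 fell outside the EXO-Post BSA range. The log2 fold change was -0.38 (SE 0.294, adjusted p 0.708 by limma), which became -0.06 when EXO-Post Palm replicate 2 was left out. Its dimmer probe (chr12:45308272-45308331, - strand, mm9) read -2.39, -2.48, -2.29 and -2.82 against -2.05, -2.64 and -3.20. Here EXO-Post Palm replicate 1 lay above the EXO-Post BSA range, replicate 3 below it and replicate 2 inside it, with a log2 fold change of -0.13 (SE 0.294, adjusted p 0.913 by limma). The array that was low on the brighter probe was not the lowest on the dimmer one.

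The PERK and ATF4 branch held members on both sides of 0. Atf4 encodes the transcription factor at the centre of the integrated stress response, and stress acts on it mainly by raising the translation of its mRNA, which an array does not measure. Its brighter probe (chr15:80087902-80087961, + strand, mm9) read 6.99, 6.59, 5.87 and 7.11 with EXO-Post BSA and 6.36, 6.50 and 7.46 with EXO-Post Palm. The EXO-Post BSA arrays alone spanned 1.24, and 1 EXO-Post Palm array lay above them. The groups differed by 0.13 in log2 fold change (SE 0.377, 95% interval -0.72 to 0.99, adjusted p 0.931 by limma). It was -0.12 without EXO-Post BSA replicate 3 and -0.21 without EXO-Post Palm replicate 3.

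The dimmer Atf4 probe (chr15:80086639-80086698, + strand, mm9) read 0.64, 0.94, 0.36 and 1.20 with EXO-Post BSA and 1.12, 0.68 and 0.49 with EXO-Post Palm. All 3 EXO-Post Palm values fell inside the EXO-Post BSA range, and the log2 fold change was -0.02 (SE 0.268, adjusted p 0.988 by limma). EXO-Post Palm replicate 3, the highest array on the brighter probe, was the lowest of its group on the dimmer one.

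Ddit3 encodes CHOP, a transcription factor that ATF4 raises and that is linked to death of cells under prolonged ER stress. Its probe (chr10:126732518-126732821, + strand, mm9, positions that span more bases than the others) read -0.53, -0.22, -0.10 and -0.22 with EXO-Post BSA and -0.10, 0.24 and 0.09 with EXO-Post Palm. EXO-Post Palm replicates 2 and 3 lay above every EXO-Post BSA array, and replicate 1 was level with the highest. The means were -0.27 ± 0.18 (SD, n = 4) and 0.08 ± 0.17 (SD, n = 3). The log2 fold change was 0.35 (SE 0.204, 95% interval -0.12 to 0.81, adjusted p 0.62 by limma, 2-sided exact permutation p 0.0857). It was 0.28 on slide 1 and 0.31 on slide 3, and 0.19 to 0.20 with normexp, without the multiplicative correction and with the authors' values.

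Trib3 encodes a pseudokinase that CHOP and ATF4 raise and that is known to bind the insulin-signalling kinase Akt. Its probe (chr2:152163161-152163220, - strand, mm9) read -0.03, 0.00, 0.06 and 0.30 with EXO-Post BSA and -0.32, -0.50 and 0.13 with EXO-Post Palm. EXO-Post Palm replicates 1 and 2 lay below every EXO-Post BSA array and replicate 3 lay within them. Trib3 thus had a log2 fold change of -0.31 (SE 0.222, 95% interval -0.82 to 0.19, adjusted p 0.681 by limma), opposite in sign to that of Ddit3. Leaving out replicate 2 of EXO-Post Palm gave -0.18, and leaving out replicate 3 gave -0.49.

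Asns encodes asparagine synthetase, an amino acid enzyme whose transcription ATF4 is known to drive. The NSRE-1 match in its promoter is printed above, and binding there was not tested. Its probe (chr6:7625171-7625228, - strand, mm9) read 2.63, 2.81, 2.87 and 2.83 with EXO-Post BSA and 2.47, 2.20 and 2.36 with EXO-Post Palm. Every EXO-Post Palm array lay below every EXO-Post BSA array. The means were 2.78 ± 0.11 (SD, n = 4) and 2.34 ± 0.14 (SD, n = 3), a log2 fold change of -0.44 (SE 0.189, 95% interval -0.87 to -0.01), or 0.737 times the EXO-Post BSA level. The unadjusted p was 0.0462 by limma and the adjusted p was 0.488. Under the other scalings the unadjusted p by limma was not always under 0.05. It was 0.0734 with quantile normalisation and 0.0883 with median centring. With normexp it was 0.0203, without the multiplicative correction 0.0329 and with the authors' values 0.0397. An exact permutation test, which enumerated all 35 partitions of the arrays, gave a 2-sided p of 0.0286, the smallest p it can give. The difference in Asns was -0.25 on slide 1 and -0.47 on slide 3, and its groups did not overlap under any of the 5 other scalings.

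The intervals show the precision that 7 arrays gave for single probes, without adjustment for the number of probes. For 11 of the 12 probes the 95% interval of limma included 0, and for 9 of the 12 it lay within 1 on the log2 scale, that is within a doubling or a halving of the level. The exceptions were Hspa5, whose upper bound was 1.11, the brighter Dnajb9 probe, whose lower bound was -1.05, and Pdia4. Differences inside these intervals could not be resolved with this number of arrays. An interval that leaves out 0 need not pass the adjusted threshold either, as for Asns, with an adjusted p of 0.488 by limma. The plot of differences sets the intervals against the spread of all tested probes.

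**Figure D2:**
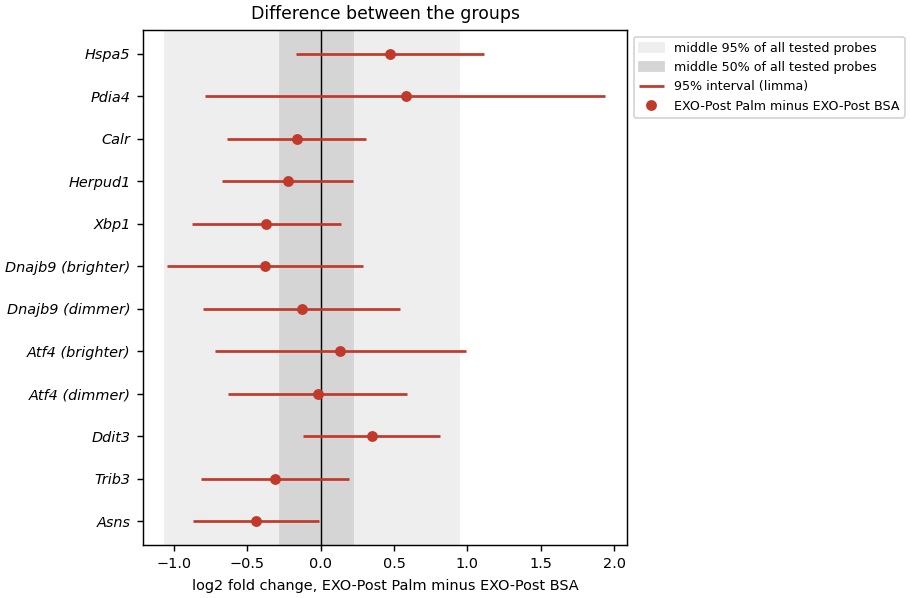
Log2 fold change of each probe (horizontal axis, EXO-Post Palm minus EXO-Post BSA) with the 95% interval of limma (lines). Grey bands hold the middle 50% (-0.28 to 0.22) and the middle 95% (-1.06 to 0.94) of the fold changes of all tested probes. All 12 points lie inside the wider band, and the interval of Asns is the only one that leaves out 0, with an upper bound of -0.01.

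Across arrays, the median distance of the 10 genes (brighter probe) from their EXO-Post BSA means was -0.22, -0.19 and 0.05 on the 3 EXO-Post Palm arrays. On the EXO-Post BSA arrays it ran from -0.04 to 0.05. Those arrays are measured from their own mean, so their closeness to 0 is partly built in. EXO-Post Palm replicates 1 and 2 had 3 and 2 genes of 10 above the EXO-Post BSA mean, and replicate 3 had 6. Within slides that held both groups, 3 of the 12 probes were higher with EXO-Post Palm on both slides, 6 were lower on both and 3 had opposite signs. Slide 3 compares 1 array with 1 array, so these are values without a test. No share over all tested probes was taken for these counts, and genes on the same array are not replicates.

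For some of these probes the values depended on a correction by the scanner software. Its processed signal is the background-subtracted signal divided by a multiplicative factor that is estimated across the surface of each array. At the 12 probes this factor ran from 0.504 to 1.45, and for 1 probe it ranged over the arrays by 0.31 to 1.23 on the log2 scale. For the brighter Atf4 probe the factor was 0.666, 0.806, 1.18 and 0.504 on the EXO-Post BSA arrays and 0.992, 0.767 and 0.545 on the EXO-Post Palm arrays. Before the correction the probe read 6.43, 6.29, 6.13 and 6.18 with EXO-Post BSA and 6.36, 6.13 and 6.60 with EXO-Post Palm. The range over the EXO-Post BSA arrays was then 0.30 in place of 1.24, and the residual SD was 0.178 in place of 0.574, with a log2 fold change of 0.11.

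The correction did not narrow or widen all probes alike. Over all tested probes the median residual SD was 0.388 before and 0.356 after it. Hspa5 went from 0.522 to 0.380, Ddit3 from 0.280 to 0.179 and Trib3 from 0.422 to 0.234 when it was applied. At Herpud1 the factor was 0.809 to 0.865 on the EXO-Post BSA arrays and 0.959 to 1.18 on the EXO-Post Palm arrays, so the factor itself differed between the groups at that spot. Without it Herpud1 read 3.42, 2.98, 3.28 and 3.14 against 3.22, 3.45 and 3.20, a log2 fold change of 0.08. For Calr the factor was 0.651 to 0.937 with EXO-Post BSA and 0.760 to 1.26 with EXO-Post Palm, and the log2 fold change without it was 0.15. This setting was chosen after the data had been seen.

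**Figure D3:**
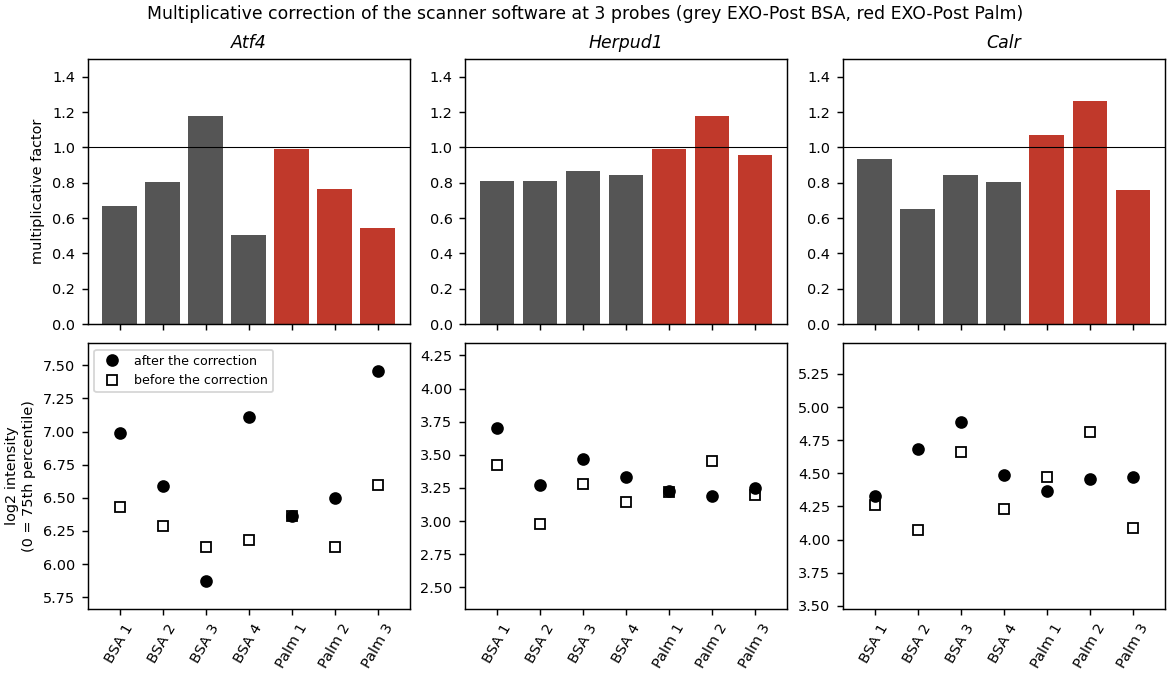
Top, multiplicative factor that the scanner software divided by at the brighter Atf4 probe, the Herpud1 probe and the Calr probe on each array (bars, no unit, grey EXO-Post BSA, red EXO-Post Palm). Bottom, log2 intensity of the same probes (0 is the 75th percentile of the array) after the correction (filled circles) and before it (open squares). The spread of Atf4 over EXO-Post BSA arrays falls from 1.24 to 0.30 without the factor.

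Under 5 other scalings of the intensities the direction held for Hspa5, Pdia4, Ddit3, Xbp1, Dnajb9, Trib3, Asns and the brighter Atf4 probe. It turned for Herpud1 and Calr with normexp background correction and without the multiplicative correction, both of which leave the factor out, and with the authors' processed values. The dimmer Atf4 probe turned with quantile normalisation, to 0.01, and stood at -0.38 to -0.42 in those 3 settings. The median of the 10 genes moved from -0.19 to between 0.06 and 0.17 in the same 3 settings, with 6 genes higher and 4 lower. The median of all tested probes stayed between -0.08 and 0.00 under the 5 scalings. A direction for the list as a whole therefore depended on the scaling.

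**Figure D4:**
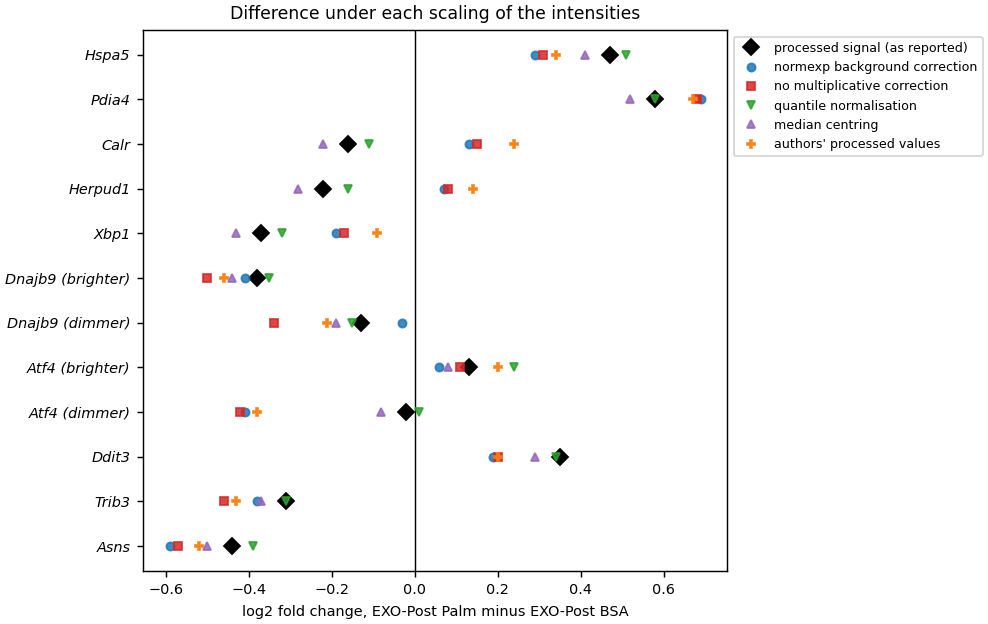
Log2 fold change of each probe (horizontal axis, EXO-Post Palm minus EXO-Post BSA) from the processed signal (black diamonds) and under 5 other scalings (coloured symbols). Calr and Herpud1 fall on both sides of 0, while Asns lies between -0.59 and -0.39 throughout.

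Genes around these 10 were read from 8 lists of the pathway, which together named 100 genes, of which 95 were tested by 1 probe each. None passed the threshold of limma in either direction, beside 0.533% of all tested probes, and none of the 116 tested probes of these genes did, with a lowest adjusted p of 0.219. By limma, 3.16% of the 95 genes were higher and 7.37% lower at an unadjusted p under 0.05, beside 4.85% and 5.19% of all tested probes. The groups did not overlap for 13.7% of them, beside 11.3%. Higher means were found for 36 genes and lower means for 59, where 47.3% of all tested probes were higher. The median log2 fold change was -0.05, beside -0.02 over all tested probes. The counts of directions by list given below stand beside the same share.

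Among the 13 sensors, eIF2alpha kinases and phosphatase subunits, the median log2 fold change was -0.02. Eif2ak3, the PERK kinase, had the lowest value, -0.57 (SE 0.295, adjusted p 0.577 by limma), and Eif2ak4, the kinase GCN2 that senses uncharged tRNA, the highest, 0.49 (SE 0.274, adjusted p 0.602). The groups overlapped for both. Of 9 stress transcription factors, Creb3l1, which encodes the ER-bound factor OASIS, had the lowest value, -1.65 (SE 0.557, adjusted p 0.365 by limma). It read 2.38, 2.30, 2.43 and 1.84 with EXO-Post BSA and 0.97, 1.76 and -0.97 with EXO-Post Palm, where replicate 3 was far below the other two. Cebpg, a partner of ATF4, had the highest, 0.37 (SE 0.296, adjusted p 0.713).

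The 19 ER chaperones and folding enzymes had a median of 0.04, with 12 higher and 7 lower. Pdia3, the isomerase ERp57 that works with calreticulin, read 3.13, 3.18, 3.43 and 3.31 with EXO-Post BSA and 2.57, 2.79 and 2.76 with EXO-Post Palm. The groups were apart, and the log2 fold change of -0.56 (SE 0.191, adjusted p 0.374 by limma) was the lowest of that list. Sdf2l1, an ER-resident protein raised by ER stress, had the highest, 0.51 (SE 0.269, adjusted p 0.582). Of 12 tested genes of ER-associated degradation 9 were lower in the mean, with a median of -0.22. Edem2, which trims glycans of misfolded proteins, was the highest at 0.26 (SE 0.288, adjusted p 0.797).

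The targets of ATF4 did not share a direction with Asns throughout. Of 20 tested targets in amino acid supply and redox, 16 were lower in the mean by their brightest probe, where 47.3% of all tested probes were higher. Among these 16, dimmer tested probes of Psat1 (0.46), Cth (0.43) and Vldlr (0.14) were higher. Those of Psph, Slc7a5, Slc6a9 and Slc1a5 were lower, as the brightest were. The median of the 20 targets was -0.20. The groups were apart upwards for 3 of them and downwards for 2, beside 5.39% and 5.87% of all tested probes, and these 5 were named after their values were seen. The downward ones were Slc3a2 (log2 fold change -0.23), a subunit of amino acid carriers, and Sesn2 (-0.34), a leucine sensor. Cbs, cystathionine beta-synthase of the transsulphuration pathway, read -2.93, -2.76, -2.23 and -2.88 with EXO-Post BSA and -1.92, -1.62 and -1.91 with EXO-Post Palm. Their difference of 0.88 on the log2 scale (SE 0.235, adjusted p 0.219 by limma) was the highest of the list. Phgdh, the first enzyme of serine synthesis, stood at 0.61 (SE 0.258, adjusted p 0.482), and Slc1a4, a carrier of neutral amino acids, at 0.55 (SE 0.222, adjusted p 0.459). Aldh1l2, a mitochondrial folate enzyme, was the lowest at -0.71 (SE 0.271, adjusted p 0.434).

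Of 12 aminoacyl-tRNA synthetases of the ATF4 programme, 9 were lower in the mean and the median was -0.29. Eprs, which charges tRNA with glutamate and proline, was the lowest at -1.17 (SE 0.470, adjusted p 0.460 by limma), and Aars, which charges it with alanine, the highest at 0.25 (SE 0.434, adjusted p 0.884). Among 6 cell death genes linked to ER stress the median was -0.02. Bbc3, which encodes the BH3-only protein PUMA, read 0.69, 0.62, 0.82 and 0.70 with EXO-Post BSA and 0.31, 0.31 and 0.22 with EXO-Post Palm, with groups apart and a log2 fold change of -0.43 (SE 0.181, adjusted p 0.485 by limma). Bcl2l11, which encodes BIM, was the highest at 0.26 (SE 0.206, adjusted p 0.719). Of 4 secreted stress factors, Vegfa stood highest at 0.06 (SE 0.324, adjusted p 0.969) and Stc2 lowest at -0.12 (SE 0.420, adjusted p 0.946).

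**Figure D5:**
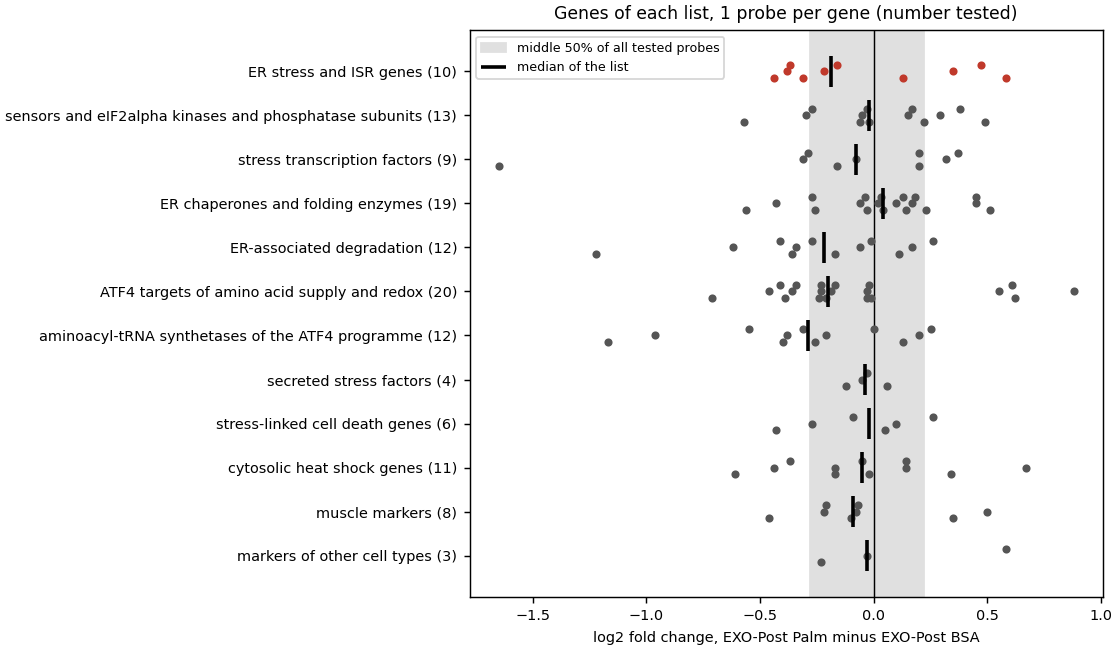
Log2 fold change of each tested gene (points, 1 probe per gene, EXO-Post Palm minus EXO-Post BSA) for the 10 genes (red) and for other lists (grey), with list medians (black bars) and the middle 50% of all tested probes (band, -0.28 to 0.22). List medians lie between -0.29 and 0.04, and no gene shown passed the threshold.

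Heat shock genes of the cytosol, which answer to unfolded protein outside the ER, were read for comparison. Of 11 tested, none passed the threshold and the median was -0.05. That median was -0.29 with normexp, -0.28 without the multiplicative correction and -0.22 with the authors' values. Dnajb1, an Hsp40 co-chaperone, read 3.35, 3.42, 3.36 and 3.70 with EXO-Post BSA and 3.96, 4.16 and 4.25 with EXO-Post Palm. The groups were apart, with a log2 fold change of 0.67 (SE 0.198, adjusted p 0.284 by limma). Hspa8, the constitutive Hsp70, was the lowest by its brightest probe at -0.61 (SE 0.313, adjusted p 0.568). Its 3 tested probes disagreed, since the others stood at -0.35 (SE 0.338, with EXO-Post BSA replicate 2 left out of the fit) and 0.80 (SE 0.346, adjusted p 0.489 by limma), the latter with groups apart upwards, so no direction is given for the gene.

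The arrays carried the RNA of muscle cells that express genes of differentiation. All 8 muscle markers were tested, with a median log2 fold change of -0.09, and none passed the threshold. Acta1, skeletal actin, read 6.71 to 7.44 over the 7 arrays. Des, which encodes desmin, had the highest value at 0.50 (SE 0.198, adjusted p 0.446 by limma), with groups apart, and Myh3, embryonic myosin, the lowest at -0.46 (SE 0.209, adjusted p 0.512), with groups apart downwards. Of 8 markers of other cell types, Ptprc, Cd68, Cdh5, Adipoq and Epcam were not well above background on enough arrays to be tested. Of those tested, Emr1 (macrophages) had a log2 fold change of 0.58 (SE 0.427, adjusted p 0.689) and Pecam1 (endothelium) one of -0.03 (SE 0.22, adjusted p 0.978). The Emr1 probe was dim, with a mean of -4.13, and was well above background on only 2 of the 3 EXO-Post Palm arrays. The other Emr1 probe was well above background on no array. The part of these markers in the values of the stress genes was not tested.

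The tested genes whose pattern over the 7 arrays was nearest to that of Hspa5, by the root mean square difference of mean-centred log2 values, were Siva1 (0.112) and 1110012L19Rik (0.113), with a probe named NAP114342-1 (0.105). For Ddit3 they were 6430526N21Rik (0.0483), Ptbp1 (0.0655) and Gramd1c (0.0663). No other stress gene named here was among them. For Pdia4, which was added after its values were seen, they were Eef2k (0.256), Shb (0.277) and Arid3a (0.314). These probes too were lowest on EXO-Post BSA replicates 1 and 3, which follows from choosing them for likeness to Pdia4. Eef2k read -4.41 and -4.72 there and -2.89 and -3.21 on replicates 2 and 4. Its probe was well above background on only 3 of the 4 EXO-Post BSA arrays. With 7 arrays and 21587 probes to choose from, likeness of this kind is a description.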

How the data were processed

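RNA of C2C12 cells was measured on 7 Agilent 1-colour arrays of the mouse design with positions on mm9. The authors deposited the scanner software's output of each array. The processed signal that the authors deposited is an intensity, background-subtracted and divided by a multiplicative spatial factor but not normalised between arrays. The deposited log2 values of the authors have the same median, 6.65, in all columns. They were matched to spots by row order (Spearman correlation with the median intensity 0.9936 or more). The labels name Feature Extraction version 9.1, while the file headers give 10.7.3.1 for 6 arrays and 11.5.1.1 for EXO-Post BSA replicate 3. The paper names Agi4x44PreProcess and limma without settings. The labels number the cell line tag on from sample to sample, while the source name gives C2C12 for all.

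Here each array's processed signal was taken to log2 and centred on the 75th percentile of its 43020 non-control spots. Control spots and spots marked as uneven or as outliers (136 to 371 per array) were left out, and spots of a probe were averaged. Probes were tested with limma 3.58.1 in R 4.3.3 if well above background on 75% or more of either group's arrays and with 2 or more values in each group. Tests were 2-sided, with p-values adjusted (Benjamini-Hochberg) over 21587 probes and a threshold of 0.05. Intervals are 95% intervals of limma. Single probes also received an exact permutation test over 35 partitions. The fit was tested on simulated data. Sequences came from RefSeq promoters (GRCm38.p6), and these coordinates were not combined with mm9.

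Named genes were the 10 members with every probe, the highest and lowest gene of each other list, any gene past the threshold, the 3 nearest profiles to Hspa5 and Ddit3, and the brightest marker. A list gene was given by its brightest probe. Some genes that this rule names are not reported here. The members, lists and tests were chosen with earlier results of these data known. There were 21 alternatives (background, normalisation, authors' values, probe filter, slide and replicate blocks, test, probe per gene, each array left out), of which the one without the multiplicative correction was chosen after the data were seen. The number of arrays limits the precision. The p-values of limma rest on the spread between the 7 cultures, with variances moderated across probes. The paper does not say whether each culture received its own preparation of exosomes. Spread between preparations may therefore not be part of these p-values. Other experiments of the study were not analysed here.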

Additional observations from a re-analysis of the deposited data

How the results depend on the processing

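No probe of the 10 genes passed the threshold under any alternative with adjusted p-values, where the lowest adjusted p of a member was 0.279 (Asns, the methods' t-test). Without adjustment that test passed 1 probe, that of Asns, and 2107 of all tested probes. By limma, the unadjusted p of Asns was 0.222 with slide as a fixed block, where its log2 fold change was -0.34. It was 0.154 with the replicate number as a block and 0.0971 with no probe filter. It was 0.0426 with slide as a random block and 0.0353 with trended and robust moderation. With arrays left out in turn, a member probe had an unadjusted p under 0.05 only without EXO-Post BSA replicate 1. The mean of all probes of a gene has no count of calls.

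The log2 fold change of Herpud1 turned from -0.22 to 0.07 with normexp, 0.08 without the multiplicative correction and 0.14 with the authors' values, and that of Calr from -0.16 to 0.13, 0.15 and 0.24. In the same 3 settings the median of the 10 genes was 0.06, 0.09 and 0.17 in place of -0.19. Medians of other lists moved there too. That of the cell death genes was -0.21, -0.23 and -0.20 in place of -0.02. The ATF4 targets of amino acid supply and redox stood at -0.08, -0.08 and -0.11 in place of -0.20. The aminoacyl-tRNA synthetases stayed at -0.22, -0.27 and -0.28, beside -0.29. The brighter Atf4 probe went from 0.13 to -0.09 with slide as a fixed block, and from -0.21 to 0.34 over the arrays left out in turn. The other 7 genes kept their sign in every alternative. Leaving out arrays gave ranges of 0.33 to 0.69 for Hspa5, 0.22 to 0.99 for Pdia4, -0.49 to -0.18 for Trib3 and -0.50 to -0.37 for Asns. The cause of these changes was not tested.

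The count of 115 probes over the whole array moved to 0 with no probe filter (1900 at an unadjusted p under 0.05), 181 with slide as a random block and 173 with trended and robust moderation. It was 0 by the methods' t-test after adjustment, and ran from 0 to 202 over the arrays left out in turn, with 0 (1583 unadjusted) without EXO-Post BSA replicate 1, and each of the 7 moved it by over 1.5 times. The replicate number as a block gave 0 probes past the threshold, 1933 at an unadjusted p under 0.05, and -0.42 for Asns. Same-numbered arrays correlated at 0.122, -0.15 and -0.148 in their deviations from the group means (the first pair also shared a slide). The numbers were therefore not taken to pair the samples. Pairs of the 2 groups that shared a slide correlated at 0.122, 0.307 and 0.177. Pairs on different slides ran from -0.221 to 0.202. The main fit held no slide term.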
